A study of Mus with 14 samples.

Results

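A small set of cells with transcripts of T and natural killer (NK) lymphocytes was selected from sorted stem and progenitor cells of mouse bone marrow. Cells were selected by raw counts of unique molecular identifiers (UMIs, each standing for 1 captured RNA molecule). A cell had to show at least 2 of the 6 genes Cd3e, Cd3d, Cd3g, Ms4a4b, Klrd1 and Ncr1, no UMI of the B cell gene Cd79a, at most 3 UMIs of the neutrophil elastase gene Elane and no UMI of the monocyte gene F13a1. In 14 libraries, 70038 cells passed the filter on quality (1000 UMIs or more, 500 genes or more, less than 10% of UMIs from mitochondrial genes), and 235 of them met this rule. Cells were thus chosen by their own transcripts, and the levels of the 6 genes and of the genes that go with them describe the choice and are not a finding. What the rule did not use was the mouse and its group.

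Each library came from the bone marrow of 1 mouse, which had received 4000000 whole marrow cells from a primary transplant recipient and was harvested 20 weeks later. All primary recipients had received poly(I:C), which mimics viral RNA and triggers the interferon-inducible Mx1 promoter that drives the recombinase MxCre. The genotype was labelled MxCre in 3 mice, Dnmt3a in 4 mice, Dnmt3a;Tnfr1KO in 3 mice and Dnmt3a;Tnfr2KO in 4 mice. Dnmt3a encodes a DNA methyltransferase, and Tnfrsf1a and Tnfrsf1b encode Tnfr1 and Tnfr2, through which cells sense tumour necrosis factor. Donor cells carried CD45.2, had been mixed in the primary transplant with an equal number of CD45.1+ competitor cells, and went into aged, lethally irradiated CD45.1+ hosts in both transplants. The sort took Lin-Kit+CD45.2+ cells, so the cells described here passed a gate meant for progenitors. The labels give only these words for the genotypes and do not say which primary recipient supplied which mouse, and some mice may have had the same donor.

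T cells recognise antigen through a receptor made of alpha and beta, or gamma and delta, chains, which signals through the CD3 proteins encoded by Cd3e, Cd3d and Cd3g. NK cells lack a rearranged receptor and use germline-encoded receptors instead, such as NKp46 (Ncr1), NK1.1 (Klrb1c), NKG2D (Klrk1) and CD94 (Klrd1), and kill with perforin and granzymes. Innate lymphoid cells share cytokine programmes with helper T cells but carry neither the T cell receptor nor, in their helper-like forms, the killing machinery. In the RefSeq annotation of GRCm38.p6, Cd3e (chr9:44998735-45009663), Cd3d (chr9:44981769-44987052) and Cd3g (chr9:44969572-44980431) are protein-coding neighbours, while Ms4a4b lies at chr19:11443558-11463549, Ncr1 at chr7:4337715-4345184 and Klrd1 at chr6:129588092-129598775.

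Total UMIs per library ranged from 62416022 to 162869740, and 1955 to 7745 cells per library were kept. The selected cells held little RNA, with a median of 4825 UMIs against 20914 in the other 69803 cells. Their median share of mitochondrial UMIs was 3.55% against 2.75%, and it was 4.52% in mature B cells. Of 6 genes listed as signs of RNA quality, 3 passed as higher than in all other cells in the 6 libraries with at least 10 selected cells, where 11% of all genes did: Malat1 (log2 fold change 1.26 ± 0.10 approximate SE, from edgeR), Gm42418 (0.57 ± 0.12) and AY036118 (0.59 ± 0.18). Against lymphoid-primed progenitors (Flt3 and Dntt detected) 4 of 6 were higher, where 16.3% of all genes were. Against mature B cells, where 5.72% of all genes were lower and 6.73% higher, Malat1 was lower (-0.55 ± 0.14) and 0 of the 6 were higher. Their part in the expression differences was not tested. No barcode of a selected cell was shared between libraries. Doublets, 2 cells caught in 1 droplet, were called for 15 of the 235 cells (6.38%) and for 4.67% of the other cells. Of the 15, 7 were in MxCre (2 of the 8 selected cells in replicate 1 and 5 of 17 in replicate 3), 3 in Dnmt3a (3 of 93 in replicate 4), 5 in the libraries labelled Dnmt3a;Tnfr1KO (1 of 12 and 4 of 42 in replicates 1 and 2) and 0 in Dnmt3a;Tnfr2KO. In the libraries labelled Dnmt3a;Tnfr1KO, Tnfrsf1a in the other cells stood at 33.4 to 37.9 CPM (counts scaled to a common total of UMIs per library and cell set), against 38.2 to 64.0 CPM in the other 11 libraries. Each of the 3 thus lay below every other library but kept most of the signal, so the label is used here as a name, and the position of any deletion relative to the 3' tags is not given in the sources used here. Tnfrsf1b in the other cells stood at 3.97 to 5.55 CPM in Dnmt3a;Tnfr2KO against 10.4 to 17.3 CPM in the remaining libraries.

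The rule genes divided the cells into 3 classes, a split made after their values were seen. At least 1 CD3 gene was detected in 150 cells (63.8%), found in all 14 libraries, with a median of 4046 UMIs. Ncr1 without any CD3 gene was detected in 55 cells (23.4%) from 9 libraries, with a median of 5327 UMIs. The last 30 cells (12.8%), from 12 libraries, met the rule through Ms4a4b and Klrd1 alone and held a median of 14891 UMIs. The commonest combination was Ms4a4b, Klrd1 and Ncr1 in 52 cells, followed by the 3 CD3 genes with Ms4a4b in 41 and the same with Klrd1 in 34. Some cells with a CD3 gene also had Ncr1, among them 6 with Cd3d, Ms4a4b, Klrd1 and Ncr1 and 5 with all 6 genes. The name Ncr1+ cells below means only those without CD3.

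Genes outside the rule were set beside 826 mature B cells (Ms4a1, Cd79a and at most 1 rule gene detected, median 2812 UMIs), a type that should lack T and NK transcripts and that was sequenced to a lower depth. The limit on rule genes holds down T and NK transcripts in these B cells by construction, although only 10 kept cells of any kind had Cd79a and 2 or more rule genes. Trac, the constant region of the T cell receptor alpha chain, was detected in 76.7% of cells with a CD3 gene, in 1.82% of Ncr1+ cells without CD3, in none of the 30 cells with only Ms4a4b and Klrd1 and in 0.363% of B cells. Trbc2, a beta chain constant region, was detected in 88.7%, 20.0%, 3.33% and 0%, and its near-identical neighbour Trbc1 in 52.0%, 80.0%, 6.67% and 0%. The T lineage transcription factor Bcl11b followed Trac, with 50.7%, 5.45%, 0% and 0%. Without Dnmt3a;Tnfr1KO replicate 2, Trac was detected in 4.17% and Bcl11b in 0% of the remaining 24 Ncr1+ cells. Thinning every cell to 2000 UMIs, which left 222 of 235 cells, kept Trac at 60.9% of cells with a CD3 gene and 1.85% of Ncr1+ cells, and Trbc1 at 44.2% and 55.6%, with both at 0% of the thinned B cells. Cells with a CD3 gene thus carried alpha chain transcripts and Ncr1+ cells mostly did not, while beta chain reads, which the counting could divide between Trbc1 and Trbc2, were present in both.

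The NK receptors went the other way. Klrb1c was detected in 80.0% of Ncr1+ cells without CD3, 22.7% of cells with a CD3 gene, 3.33% of those with only Ms4a4b and Klrd1, and none of the 826 B cells. Thinned to 2000 UMIs, Klrb1c stood at 51.9%, 14.5% and 3.33% in the 3 classes. Klrk1 was detected in 94.5%, 29.3% and 50%, and Il2rb, the receptor chain for interleukins 2 and 15, in 94.5%, 62.7% and 6.67%. Eomes, a transcription factor of NK and memory T cells, was found in 56.4%, 25.3% and 3.33%, and in 37.5% of Ncr1+ cells without Dnmt3a;Tnfr1KO replicate 2. The pore-forming protein gene Prf1 was detected in 56.4%, 19.3% and 0%, Gzma in 30.9%, 4.67% and 0%, and the chemokine Xcl1 in 85.5%, 31.3% and 6.67%. Gzmk was detected in 1.82%, 16% and 0%. Without Dnmt3a replicate 4, Gzma was detected in 8.57% and Gzmk in 11.4% of the remaining 70 cells with a CD3 gene. Genes of the Klra and Klrc families are near-identical copies, so their single values are uncertain; Klrc1 was detected in 49.1% of Ncr1+ cells (25% without Dnmt3a;Tnfr1KO replicate 2) and 16.7% of cells with a CD3 gene.

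**Figure D1:**
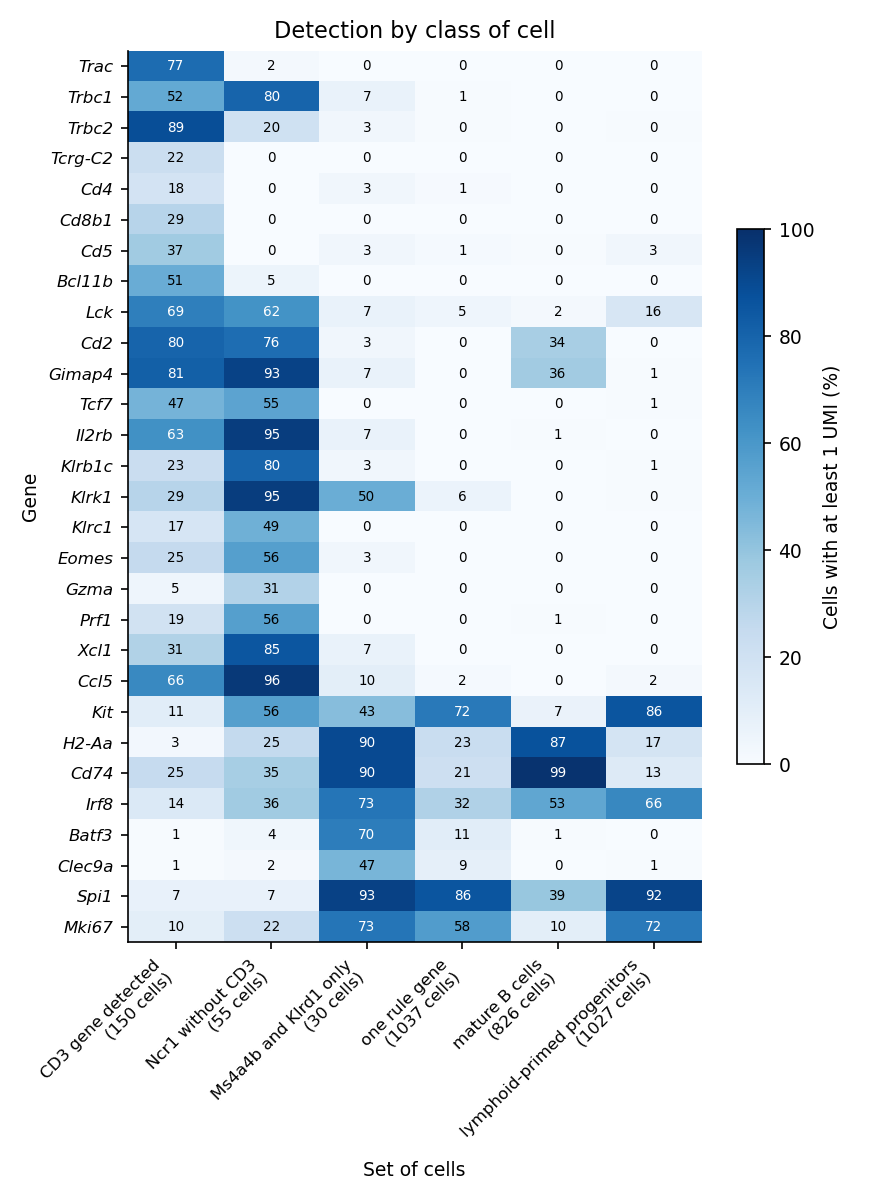
Share of cells with at least 1 UMI (percent, colour and printed value) for 29 genes (rows) in the 3 classes of selected cells, the cells with exactly 1 rule gene, mature B cells and lymphoid-primed progenitors (columns, not thinned). Among the 3 classes, Trac, Bcl11b and Cd8b1 are highest in cells with a CD3 gene, Klrb1c, Prf1 and Xcl1 in Ncr1+ cells, and H2-Aa, Batf3 and Spi1 in those with only Ms4a4b and Klrd1.

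Among the cells with a CD3 gene, coreceptors divided further. Cd8a or Cd8b1 without Cd4 was detected in 49 of 150 cells (32.7%) and Cd4 without either in 27 (18.0%). UMIs of both were seen in none of the 150, at a depth where either can be missed. Foxp3, the factor that defines regulatory T cells, was detected in 14.7% of cells with a CD3 gene and in neither of the other classes, Ctla4 in 20.0% and Izumo1r in 24.7%. These values rested on Dnmt3a replicate 4, which gave 80 of the 150 cells and 17 of the 22 with Foxp3. Without it, Foxp3 and Ctla4 were each detected in 7.14%, Izumo1r in 11.4% and Cd4 in 10.0% of the remaining 70 cells, and Cd8b1 in 31.4% against 29.3% with it. A constant region of the gamma or delta chain (Trdc, Tcrg-C4, or Tcrg-C1 and Tcrg-C2, which are similar in sequence) was found in 50 of these 150 cells (33.3%). It was also found in 18 of 55 Ncr1+ cells (32.7%), where it was mainly Trdc (18.2%) and Tcrg-C4 (14.5%). Without Dnmt3a;Tnfr1KO replicate 2, Trdc was at 8.33% and Tcrg-C4 at 25% of Ncr1+ cells, and without Dnmt3a replicate 4 Trdc was at 15.7% of cells with a CD3 gene against 9.33% with it.

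The innate lymphoid part of the label could not be checked well. The combination taken to mark helper-like innate lymphoid cells, Il7r with Gata3 or Rora and without any CD3 gene or the receptors Klrb1c, Klrk1 and Klre1, was open to only 14 of the 235 cells, since 150 had a CD3 gene and 71 of the other 85 had at least 1 of those NK receptors. None of the 14 showed it. All 14 lay in the class with only Ms4a4b and Klrd1, since all 55 Ncr1+ cells without CD3 had such a receptor. The 0 thus says little about innate lymphoid cells. That class held a median of 14891 UMIs, and these genes can still be missed. Il5, Il13, Il22 and Il23r, which such cells use to make or receive their signals, were all at 0 UMIs in the selected cells.

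The 30 cells with only Ms4a4b and Klrd1 went against the label. Genes of antigen presentation and of dendritic cells, which sample antigen and display it to T cells, led in them. H2-Aa, an MHC class II chain, was detected in 90.0% of these cells against 2.67% of cells with a CD3 gene (4.29% without Dnmt3a replicate 4) and 25.5% of Ncr1+ cells (12.5% without Dnmt3a;Tnfr1KO replicate 2), and kept 90.0% after thinning to 2000 UMIs. Batf3, a factor needed for conventional type 1 dendritic cells, was detected in 70.0%, 0.667% and 3.64%, its partner Irf8 in 73.3%, 14% and 36.4%, and the receptor Clec9a in 46.7%, 0.667% and 1.82%. Flt3, a growth factor receptor of progenitors and dendritic cells, was found in 66.7%, 2% and 1.82%, and the myeloid factor Spi1 in 93.3%, 7.33% and 7.27%. Xcr1, the usual surface mark of type 1 dendritic cells, was detected in none of the 30 cells. The list of dendritic cell genes was added after the values were seen, so these 30 cells are given no name and are called by their 2 rule genes throughout.

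The 44 selected cells with exactly 2 rule genes, 30 of which were the Ms4a4b-and-Klrd1-only cells, had a median of 10200 UMIs, with Trbc2 in 20.5% and H2-Aa in 68.2%. The 191 cells with 3 or more had a median of 4544 UMIs, with Trbc2 in 71.2%, Il2rb in 72.8% and H2-Aa in 7.85%. Just outside, 1037 cells met all other conditions with exactly 1 rule gene, which was Ms4a4b in 67.5% of them. These held a median of 15632 UMIs, with Trbc2 in 0.482% and no UMI of Il2rb. A further 97 cells had 2 or more rule genes but were left out through Cd79a (10 cells), Elane (72) or F13a1 (76), held a median of 30496 UMIs and showed Trbc2 in 21.6%.

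The share of selected cells was lowest in Dnmt3a;Tnfr2KO and varied most in Dnmt3a. In MxCre replicates 1 to 3, 8, 6 and 17 cells gave 0.130%, 0.209% and 0.369% of kept cells. In Dnmt3a replicates 1 to 4, 3, 5, 10 and 93 cells gave 0.153%, 0.181%, 0.174% and 1.64%. In the libraries labelled Dnmt3a;Tnfr1KO, 12, 42 and 17 cells gave 0.185%, 1.14% and 0.536%. In Dnmt3a;Tnfr2KO, 6, 5, 5 and 6 cells gave 0.0775%, 0.0847%, 0.0778% and 0.0881%. Dnmt3a replicates 1 to 3 lay within the range of MxCre, replicate 4 was the highest of all 14, and every Dnmt3a;Tnfr2KO mouse lay below every mouse of the other groups, as a share of kept cells. This separation depended on the quality filter: in Dnmt3a replicate 1 only 26.9% of barcodes were kept, and 5138 of the 5302 left out held under 1000 UMIs. As a share of all barcodes, that mouse stood at 0.0413%, below the 4 Dnmt3a;Tnfr2KO mice (0.0710% to 0.0849%). The 95% Wilson interval was 1.34% to 2.002% in Dnmt3a replicate 4 and 0.0404% to 0.192% in Dnmt3a;Tnfr2KO replicate 4, and such intervals cover counting error only.

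**Figure D2:**
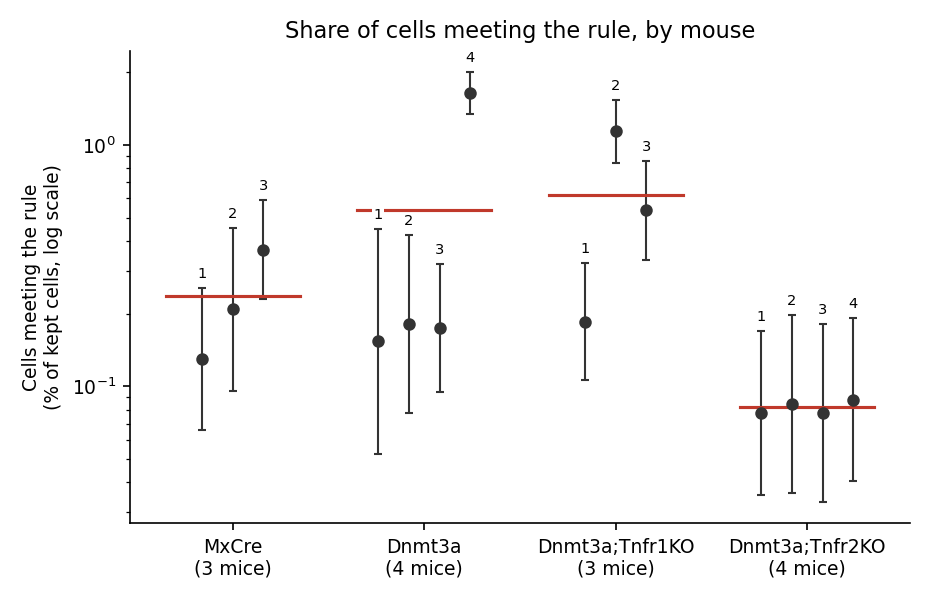
Share of kept cells that met the rule (percent, log scale) in each mouse, by group; points are mice with their replicate number, bars are 95% Wilson intervals and red lines are group means. The 4 Dnmt3a;Tnfr2KO mice sit between 0.0775% and 0.0881%, and Dnmt3a replicate 4 stands at 1.64%.

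MxCre had a mean share of 0.236% ± 0.122 (SD, n = 3) and Dnmt3a one of 0.537% ± 0.734 (SD, n = 4). The mean was 0.620% ± 0.482 (SD, n = 3) in the libraries labelled Dnmt3a;Tnfr1KO and 0.0820% ± 0.00525 (SD, n = 4) in Dnmt3a;Tnfr2KO. Dnmt3a;Tnfr2KO differed from Dnmt3a by -0.455 percentage points (0.153-fold), with a two-sided exact permutation p of 0.0286, the smallest that 4 against 4 mice can give, and 0.114 after Benjamini-Hochberg adjustment over the 4 comparisons. From the libraries labelled Dnmt3a;Tnfr1KO it differed by -0.538 points (0.132-fold; exact p = 0.0571, the smallest that 3 against 4 can give; adjusted 0.114). Dnmt3a exceeded MxCre by 0.301 points (exact p = 0.914, adjusted 0.914), and the libraries labelled Dnmt3a;Tnfr1KO exceeded Dnmt3a by 0.0830 points (exact p = 0.914, adjusted 0.914), both within the spread between mice. No comparison of shares passed 0.05 after adjustment, and with these numbers of mice none could have, even with full separation. Those with 3 mice could not have passed it unadjusted either. The adjusted values thus do not show that the shares were alike.

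The size of these differences, and in part their direction, rested on single mice. Dnmt3a;Tnfr1KO minus Dnmt3a was -0.0447, -0.0354 and -0.0378 points without Dnmt3a replicates 1, 2 and 3, and -0.176 points without Dnmt3a;Tnfr1KO replicate 2, the reverse of its value over all mice. Without Dnmt3a replicate 4, Dnmt3a;Tnfr2KO differed from Dnmt3a by -0.0877 points (exact p = 0.0571, the smallest possible), and Dnmt3a from MxCre by -0.0659 points. Without replicate 2 of the libraries labelled Dnmt3a;Tnfr1KO, Dnmt3a;Tnfr2KO differed from the other 2 by -0.278 points (exact p = 0.133). As a share of all barcodes Dnmt3a;Tnfr2KO differed from Dnmt3a by -0.351 points (exact p = 0.143, adjusted 0.286). At a common depth of 2000 UMIs Dnmt3a;Tnfr2KO differed from Dnmt3a by -0.399 points (exact p = 0.2), and with the Ms4a4b-and-Klrd1-only cells left out by -0.424 points (exact p = 0.0857). A share counts cells that passed the sort, so fewer such cells and more of the other cells cannot be told apart.

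The B cell gene Cd79a was commonest in the 2 mice with the highest shares of selected cells. It was detected in 46.8% of the other kept cells in Dnmt3a replicate 4 and 13.4% in replicate 2 of the libraries labelled Dnmt3a;Tnfr1KO. It stood at 6.92%, 0.545% and 4.22% in Dnmt3a replicates 1 to 3, at 0.865% and 5.20% in replicates 1 and 3 of the libraries labelled Dnmt3a;Tnfr1KO, at 0.6% to 1.74% in MxCre and at 0.249% to 0.500% in Dnmt3a;Tnfr2KO. The third highest value, in Dnmt3a replicate 1, stood beside a share of selected cells of only 0.153%, and the Dnmt3a;Tnfr2KO mice held the lowest values of both. Whether a difference in the sort between mice had a part in the shares was not tested.

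**Figure D3:**
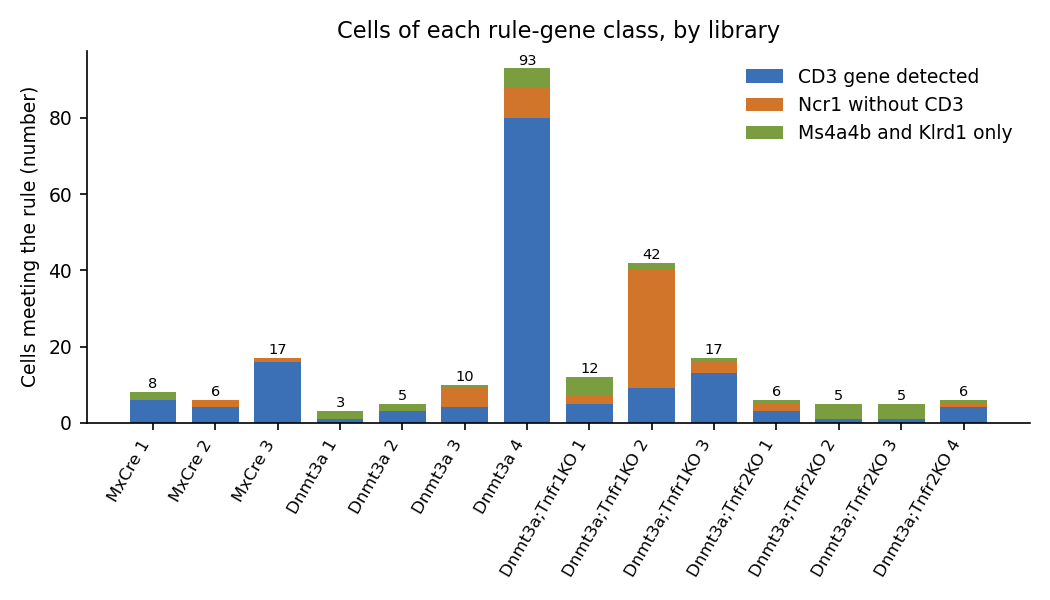
Number of selected cells (bars, total printed on top) in each of the 14 libraries, divided into cells with a CD3 gene, cells with Ncr1 and no CD3 gene, and cells with Ms4a4b and Klrd1 only. Of the 93 cells of Dnmt3a replicate 4, 80 had a CD3 gene, and of the 42 cells of Dnmt3a;Tnfr1KO replicate 2, 31 had Ncr1 without CD3.

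The 3 classes fell differently over the mice. Cells with a CD3 gene numbered 6, 4 and 16 in MxCre, 1, 3, 4 and 80 in Dnmt3a, 5, 9 and 13 in the libraries labelled Dnmt3a;Tnfr1KO, and 3, 1, 1 and 4 in Dnmt3a;Tnfr2KO. As a share of kept cells they were lower in Dnmt3a;Tnfr2KO (0.0325% ± 0.0205, n = 4) than in Dnmt3a (0.410% ± 0.666, n = 4), a difference of -0.377 points (exact p = 0.0571, adjusted 0.114), with overlap between the groups. Without Dnmt3a replicate 4 that difference was -0.0441 points (exact p = 0.114). Against the libraries labelled Dnmt3a;Tnfr1KO (0.244% ± 0.166, n = 3) the difference was -0.211 points without overlap (exact p = 0.0571, adjusted 0.114), and -0.128 points (exact p = 0.133) without Dnmt3a;Tnfr1KO replicate 3.

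Cells with Ncr1 and no CD3 gene numbered 0, 2 and 1 in MxCre, 0, 0, 5 and 8 in Dnmt3a, 2, 31 and 3 in the libraries labelled Dnmt3a;Tnfr1KO, and 2, 0, 0 and 1 in Dnmt3a;Tnfr2KO. Their share was 0.0101% ± 0.0125 (n = 4) in Dnmt3a;Tnfr2KO and 0.322% ± 0.450 (n = 3) in the libraries labelled Dnmt3a;Tnfr1KO, which did not overlap (exact p = 0.0571, adjusted 0.229). Without replicate 2 of the latter the difference went from -0.312 to -0.0526 points. Cells with only Ms4a4b and Klrd1 numbered 2, 0 and 0 in MxCre, 2, 2, 1 and 5 in Dnmt3a, 5, 2 and 1 in the libraries labelled Dnmt3a;Tnfr1KO, and 1, 4, 4 and 1 in Dnmt3a;Tnfr2KO. They made up 10 of the 22 selected cells of Dnmt3a;Tnfr2KO and 10 of the 111 of Dnmt3a, or 5 of 18 without Dnmt3a replicate 4. No comparison of their share passed 0.05 (smallest adjusted p = 0.343, exact permutation tests), and after adjustment none could have with these numbers of mice.

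The 2 mice that supplied most cells held different lymphocytes. In Dnmt3a replicate 4, Trac was detected in 71 of 93 cells, Trbc2 in 75, Cd8b1 in 22, Cd4 in 21, Foxp3 in 17 and Ctla4 in 25, whereas Klrb1c was detected in 18 and Gzma in 2. In Dnmt3a;Tnfr1KO replicate 2, Trac was detected in 4 of 42 cells, Trbc2 in 11, Cd8b1 in 4, and Cd4 and Foxp3 in none, while Klrb1c was detected in 31, Xcl1 in 33, Prf1 in 23 and Gzma in 14. Tcf7, a factor of early and memory lymphocytes, was found in 36 of 93 and 27 of 42 cells. At least 1 of Trac, Trbc1 and Trbc2 was detected in 84 of 93 and 35 of 42 cells, so beta chain reads were common in both. Most cells of the first library thus held alpha chain transcripts, some with CD4, CD8 or regulatory genes. Most cells of the second held NK receptor transcripts, and few held Trac.

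MxCre replicate 3 resembled the first of these. Its 17 cells included 16 with a CD3 gene, 17 with Trbc2, 11 with Trac, 8 with Cd8b1 and 2 with Cd4. In Dnmt3a;Tnfr1KO replicate 3, Trac and Trbc2 were each detected in 9 of 17 cells, Cd8b1 in 5, Cd4 in 2 and Klrb1c in 7. Among the 22 cells of Dnmt3a;Tnfr2KO, Trac was detected in 2, 1, 0 and 2 cells of replicates 1 to 4 and Foxp3 in 1 cell. Numbers this small do not allow a comparison of T cell make-up between groups.

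**Figure D4:**
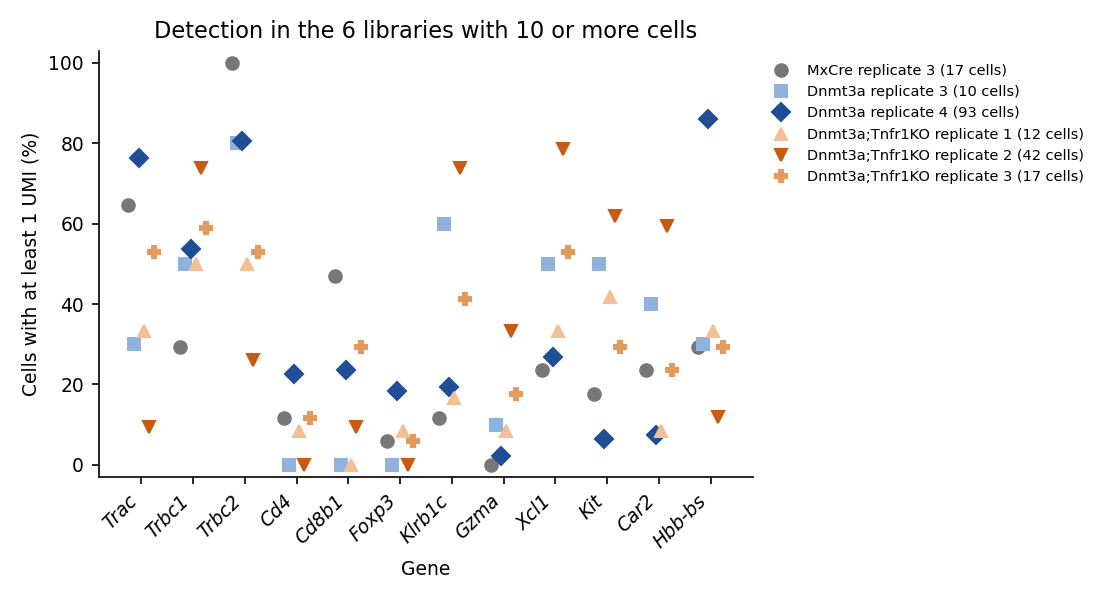
Share of selected cells with at least 1 UMI (percent) of 12 genes in the 6 libraries with 10 or more selected cells; each symbol is 1 library. Dnmt3a replicate 4 is high for Trac, Trbc2 and Hbb-bs, and Dnmt3a;Tnfr1KO replicate 2 is high for Trbc1, Klrb1c, Xcl1, Kit and Car2.

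Kit, the receptor used in the sort, was detected in 60 of the 235 selected cells (25.5%), against 75.2% of all other kept cells. That gap is not at equal depth. The median was 4825 UMIs in the selected cells and 20914 in the others, which were not thinned. In the fit of summed UMIs over 6 libraries, given below, Kit did not pass. By class it was found in 10.7% of cells with a CD3 gene, 56.4% of Ncr1+ cells without CD3 and 43.3% of those with only Ms4a4b and Klrd1. Thinned to 2000 UMIs, Kit stood at 6.52%, 25.9% and 6.67%, and at 1.90% of mature B cells. The Ncr1+ cells of Dnmt3a;Tnfr1KO replicate 2 accounted for 21 of the 31 Ncr1+ cells with Kit. Car2, the carbonic anhydrase of early erythroid and progenitor cells, was detected in 11.3%, 60% and 13.3% of the classes (27.8% of Ncr1+ cells after thinning). Without Dnmt3a replicate 4, Kit was at 17.1% and Car2 at 20.0% of cells with a CD3 gene. Within Dnmt3a;Tnfr1KO replicate 2, Trbc1 was detected in 26 and Klrb1c in 26 of the 31 Ncr1+ cells, and Trac in none.

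Transcripts of other blood lineages were detected in every class. Mpo, the neutrophil granule enzyme, was detected in 34% of cells with a CD3 gene, 32.7% of Ncr1+ cells, 50% of those with only Ms4a4b and Klrd1 and 27.6% of mature B cells. Haemoglobin moved with 1 library: Hbb-bs was detected in 80 of the 93 selected cells of Dnmt3a replicate 4, at 9016 CPM, and stood at 0 to 95.8 CPM in those of the other 13 libraries. In the other kept cells Hbb-bs was at 11381 CPM in Dnmt3a replicate 4 and at 123.5 to 1589 CPM elsewhere. S100a8 was detected in 49 of the same 93 cells, at 150 CPM, and in the other kept cells of that library at 11004 CPM against 188 to 7793 CPM elsewhere. Over the 12 erythroid genes listed, the summed level in the selected cells was 15667 CPM in Dnmt3a replicate 4 and 192 to 500 CPM in the other 5 libraries with 10 or more of them. Their part in the shares and levels given here was not tested.

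Summed UMIs of the selected cells were compared with those of all other kept cells of the same library, with the library as a term, by edgeR's quasi-likelihood test. The cells had been chosen by their own transcripts, so these counts describe them and support nothing. Only 2 libraries held at least 20 selected cells; in them 3033 of 13693 genes (22.2%) passed an adjusted p of 0.05, 1275 (9.31%) higher and 1758 (12.8%) lower. In the 6 libraries with at least 10, 4009 of 14278 (28.1%) passed, 1565 (11%) higher and 2444 (17.1%) lower, and the fold changes that follow are from these 6 unless stated. The median of all genes was -0.28 on the log2 scale there, 0.19 under DESeq2's size factors (1894 higher, 1146 lower) and -0.08 with totals in place of TMM (1919 higher, 1609 lower).

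T cell receptor and signalling genes stood far above the other cells. All 8 receptor chain genes passed as higher, with a median log2 fold change of 9.21, and so did the 3 coreceptor genes (9.37). Trac was at 233 CPM against 0.107 (log2 fold change 10.86 ± 0.34 approximate SE, higher in 6 of 6 libraries, edgeR adjusted p = 2.4e-22). Of 18 signalling genes 16 passed, among them Lck, the kinase that starts receptor signalling (6.88 ± 0.29), Zap70 (9.19 ± 0.60), the surface protein Cd2 (7.97 ± 0.35) and the adaptor Skap1 (9.06 ± 0.31). The 2 that did not were Sit1 (1.98 ± 0.83, adjusted p = 0.075) and Ubash3a (0.32 ± 0.33, adjusted p = 0.49).

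All 18 NK receptor genes tested passed as higher (median 9.72), from Klra8 (12.61 ± 0.75) down to the shared signalling adaptors Fcer1g (1.26 ± 0.18) and Tyrobp (0.91 ± 0.20), which myeloid cells also use. Of 14 cytotoxic genes 12 passed as higher, with Ccl5, a chemokine of memory T and NK cells, at 3602 against 2.88 CPM (10.05 ± 0.30). Gzma stood at 12.82 ± 0.39, Xcl1 at 12.09 ± 0.56, Prf1 at 8.51 ± 0.65 and Ifng at 11.35 ± 0.81. Nkg7, often read as an NK gene, did not pass (0.29 ± 0.19, adjusted p = 0.28), passed as higher with totals in place of TMM (0.50, adjusted p = 0.037) and was detected in 83.3% of the other kept cells. Cst7 passed as lower (-0.63 ± 0.20, adjusted p = 0.015), a call that was lost with totals in place of TMM (adjusted p = 0.10) and under DESeq2 (adjusted p = 0.19).

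Of 16 transcription factors of T and NK cells 15 passed as higher, among them Tcf7 (7.34 ± 0.35), Bcl11b (9.42 ± 0.71), Tbx21 (10.52 ± 0.82), Eomes (11.41 ± 0.60) and Id2, which NK and innate lymphoid cells need (5.02 ± 0.24). Zeb2 was lower (-1.82 ± 0.23, adjusted p = 2.3e-07). All 6 regulatory T cell genes passed as higher, with Foxp3 at 7.74 ± 0.90 and higher in 4 of 6 libraries. Among 13 genes of naive, memory and homing states 10 passed as higher, including the chemokine receptors Cxcr3 (8.08 ± 0.50) and Cxcr6 (10.37 ± 0.64), and Ly6c2 as lower (-1.86 ± 0.39). Of 13 innate lymphoid and helper-like genes tested 9 passed as higher, including Gata3 (4.54 ± 0.38), Il18r1 (6.06 ± 0.43) and Il7r (4.77 ± 0.59), all of which T or NK cells also use.

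The 8 Gimap genes, a cluster of lymphocyte GTPases on chromosome 6 from Gimap8 (chr6:48647186-48660875) to Gimap3 (chr6:48764464-48770851), all passed as higher (median 4.87). Against mature B cells, 442 of 6569 genes (6.73%) passed as higher and 376 (5.72%) as lower in the same 6 libraries. In the 2 libraries with at least 20 selected cells, 681 of 7727 (8.81%) passed, 400 (5.18%) higher and 281 (3.64%) lower. In the 6 libraries 4 of the 8 Gimap genes were higher than in B cells: Gimap3 (1.78 ± 0.31), Gimap4 (1.89 ± 0.31), Gimap7 (1.74 ± 0.26) and Gimap9 (1.08 ± 0.26). Gimap1 stood at -0.12 ± 0.28 against B cells. Ltb, which encodes lymphotoxin beta, was higher than in all other cells (5.35 ± 0.20) and stood at -0.18 ± 0.30 against B cells (adjusted p = 0.84). Ets1, a factor of both lineages, stood at 4.25 ± 0.24 against all other cells and 0.14 ± 0.32 against B cells. Klf2, which keeps resting lymphocytes in circulation, was higher than in all other cells (2.83 ± 0.27) and lower than in B cells (-2.11 ± 0.34). All 12 B cell genes tested were lower than in B cells. This follows from the choice of cells, since the rule shut out Cd79a and the B cells had to show it. Against lymphoid-primed progenitors (Flt3 and Dntt detected, 1027 cells), 2515 of 7522 genes (33.4%) passed in the 6 libraries, 1228 (16.3%) higher and 1287 (17.1%) lower, and 1942 of 7604 (25.5%) in the 2 libraries, 1030 (13.5%) higher and 912 (12%) lower. All 8 Gimap genes passed as higher there too.

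In the tumour necrosis factor family 12 of 16 genes tested passed as higher. They included the costimulatory receptors Tnfrsf9 (9.51 ± 0.65), Tnfrsf4 (6.39 ± 0.59) and Cd27 (1.42 ± 0.21), the death ligand Fasl (11.64 ± 0.71), the adaptor Traf1 (6.49 ± 0.34) and Tnf itself (1.71 ± 0.52, adjusted p = 0.011), at 11.9 against 3.13 CPM. Tnfrsf1b stood at 0.61 ± 0.36 (adjusted p = 0.22). Tnfrsf1a was lower (-0.75 ± 0.27, adjusted p = 0.038), at 30.2 against 43.2 CPM, a call lost with totals in place of TMM (adjusted p = 0.15) and under DESeq2 (adjusted p = 0.28). Of 12 interferon response genes 6 passed as higher (median of the list 1.48), with Irf7 at 3.01 ± 0.43, and Bst2 as lower (-0.54 ± 0.20), a call lost with totals in place of TMM (adjusted p = 0.23) and under DESeq2 (adjusted p = 0.35). In cells with a CD3 gene only, in 3 libraries, 2 of the 12 passed as higher and 0 as lower (median 0.85), where 6.62% of all genes passed as higher.

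**Figure D5:**
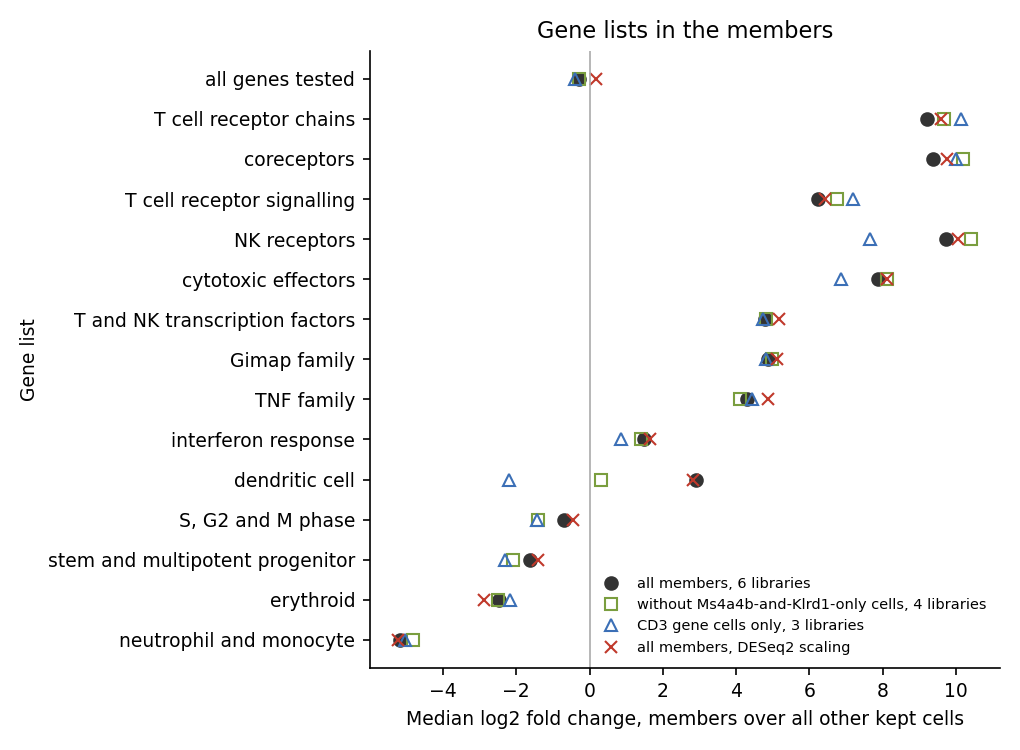
Median log2 fold change of each gene list (rows), selected cells over all other kept cells, for all selected cells, without the Ms4a4b-and-Klrd1-only cells, for cells with a CD3 gene only, and under DESeq2's scaling. T and NK lists lie right of 0 in every version, and the dendritic cell list stands at 2.91 with all selected cells (6 libraries) and at -2.19 with CD3 cells only (3 libraries).

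Most neutrophil, monocyte and erythroid genes were lower. Of 12 neutrophil and monocyte genes outside the rule 11 passed as lower (median -5.18), with S100a8 at 43.5 against 3343 CPM (-6.42 ± 0.20), Mpo at -5.12 ± 0.25 and Prtn3 at -5.23 ± 0.23. Of 12 erythroid genes 10 were lower, including Car1 (-2.83 ± 0.34) and Blvrb (-2.25 ± 0.29). Of 13 stem and progenitor genes tested 7 passed as lower (median of the list -1.63), including Cd34 (-2.65 ± 0.37), Lmo2 (-1.95 ± 0.20), Gata2 (-1.63 ± 0.34) and the mast cell protease gene Cpa3 (-2.95 ± 0.44). Ly6a, which T cells also carry, and Tespa1, a gene of T cell receptor signalling, passed as higher (2.45 ± 0.35 and 0.91 ± 0.23). Among those that did not pass, Kit stood at -0.62 ± 0.25 (adjusted p = 0.058) and Mecom at -1.08 ± 0.78, and Procr had no UMI in the selected cells of these 6 libraries.

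Of 15 genes of S, G2 and M phase, 7 to 15 passed as lower than in all other kept cells, depending on the fit. None passed against mature B cells, where few of all genes passed. In the 2 libraries with at least 20 selected cells all 15 such genes passed as lower (median -1.54), where 12.8% of all genes did. In the 6 libraries 8 of 15 did (median -0.69), where 17.1% of all genes did, among them the replication genes Mcm5 (-1.91 ± 0.25) and Pcna (-1.37 ± 0.18), and 7 under DESeq2 and with totals in place of TMM. Against lymphoid-primed progenitors 7 of 15 passed as lower in the 6 libraries (median -0.55) and 12 in the 2 libraries, where 17.1% and 12% of all genes did. Against mature B cells 0 of 15 passed in either direction in the 2 libraries (median -0.62) or in the 6 (median 0.44). Of all genes, 5.18% were higher and 3.64% lower there in the 2 libraries, and 6.73% and 5.72% in the 6. A list of 15 genes could thus give 0 at those shares. With cells that had a CD3 gene only, 3 libraries could be fitted and all 15 passed as lower (median -1.44), where 10.9% of all genes did. With only the Ms4a4b-and-Klrd1-only cells left out, 4 libraries could be fitted and 14 of 15 passed as lower (median -1.42), where 14.3% of all genes did. These fits differ in both cells and libraries. Mki67, a gene of dividing cells, was detected in 10.0% of cells with a CD3 gene, 21.8% of Ncr1+ cells, 73.3% of the Ms4a4b-and-Klrd1-only cells and 65.8% of all other kept cells. At 2000 UMIs the shares of the 3 classes were 5.07%, 7.41% and 53.3%, and the other kept cells, which were sequenced deeper, were not thinned. Unthinned, Mki67 was at 15.7% of cells with a CD3 gene without Dnmt3a replicate 4 and at 12.5% of Ncr1+ cells without Dnmt3a;Tnfr1KO replicate 2. Of 13 dendritic cell genes 9 were higher and 1 lower over all selected cells in the 6 libraries, where 11% and 17.1% of all genes were. In cells with a CD3 gene in 3 libraries 2 were higher and 7 lower, where 6.62% and 10.9% of all genes were. With only the Ms4a4b-and-Klrd1-only cells left out, in 4 libraries, 2 were higher and 2 lower, where 9.33% and 14.3% of all genes were.

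Expression inside the selected cells could be tested between groups in a single comparison, the 3 libraries labelled Dnmt3a;Tnfr1KO against 2 of Dnmt3a, each with at least 10 cells. Of 2802 genes tested 0 passed (0%) by edgeR's quasi-likelihood test (smallest adjusted p = 0.0536). An unadjusted p under 0.05 was found for 144, about as many as that limit lets through by chance alone. DESeq2 called 11, no filter on low counts 46, and leaving out Dnmt3a;Tnfr1KO replicate 1 gave 6. Without Dnmt3a replicate 3 it was 5, with 1 Dnmt3a library left and its spread assumed like that of the others. The libraries compared also differed in class make-up. Cells with a CD3 gene were 86.0% of the selected cells in Dnmt3a replicate 4, and Ncr1+ cells 73.8% in Dnmt3a;Tnfr1KO replicate 2. Genotype and make-up cannot be told apart here, and with so few libraries the 0 does not show that expression was alike. MxCre kept 1 library with at least 10 cells and Dnmt3a;Tnfr2KO none, so their values are given without a test.

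The targeted genes were thinly covered in these cells. Tnfrsf1b summed to 21.2 CPM in MxCre (4 UMIs), 43.7 in Dnmt3a (31), 12.2 in the libraries labelled Dnmt3a;Tnfr1KO (8) and 11.98 in Dnmt3a;Tnfr2KO (2), with exact 95% Poisson intervals of 5.79 to 54.4, 29.7 to 62.0, 5.25 to 24.0 and 1.45 to 43.3 CPM. By mouse it stood at 31.9, 12.1, 25.8 and 53.4 CPM in Dnmt3a replicates 1 to 4 and at 9.59, 9.69 and 21.3 CPM in the libraries labelled Dnmt3a;Tnfr1KO. The mice of both groups overlapped, and 17 of the 22 Dnmt3a cells with a UMI came from replicate 4. Tnfrsf1a summed to 37.2, 31.0, 30.4 and 65.9 CPM in the same order, from 7, 22, 20 and 11 UMIs. Tnf was detected in 2 of 31, 6 of 111, 6 of 71 and 0 of 22 cells, and the last allows up to 22.1 CPM. Dnmt3a was detected in 3, 22, 13 and 2 cells, at 21.2, 38.1, 25.8 and 18.0 CPM. Ltb summed to 616, 646, 438 and 258 CPM, with intervals of 509 to 739, 588 to 707, 389 to 491 and 186 to 347. Such intervals cover counting error and not the spread between mice: in Dnmt3a, Ltb was at 47.8, 97.1, 373 and 859 CPM in replicates 1 to 4, and in Dnmt3a;Tnfr2KO at 271, 83.7, 143 and 783 CPM. The mice of these groups overlapped for Ltb. Class make-up also differed between these mice. Ms4a4b-and-Klrd1-only cells were 66.7%, 40%, 10% and 5.38% of the selected cells in Dnmt3a replicates 1 to 4. In Dnmt3a;Tnfr2KO they were 16.7%, 80%, 80% and 16.7%. That class held a median of 14891 UMIs per cell against 4046 in cells with a CD3 gene, so each such cell weighed more in these sums. Its part in the levels was not tested.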

How the data were processed

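Bone marrow cells of 14 mice were profiled by 10x Genomics 3' single-cell RNA sequencing (version 3.1 chemistry, per the labels' protocols). The authors deposited 1 matrix of UMI counts per mouse over 32285 genes, made with Cell Ranger 6.0.0 and bcl2fastq 2.20.0.422 on mm10 (GRCm38), per the submitters' processing notes. A cell was kept if it held 1000 UMIs or more, 500 genes or more and less than 10% of UMIs from mitochondrial genes. Doublets were scored with scanpy 1.11.5 (Scrublet); its automatic threshold failed, so the highest-scoring cells were called at 0.8% per 1000 cells, and calls were left in.

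Each mouse is 1 replicate. Shares of kept cells were compared by exact two-sided permutation tests over mice, with Benjamini-Hochberg adjustment over 4 comparisons. Counts were summed per library and cell set and tested with edgeR 4.0.16 (limma 3.58.1, R 4.3.3, TMM, filterByExpr, quasi-likelihood, library as a term, Benjamini-Hochberg over all genes). The ± gives an approximate standard error (SE), the size of a log2 fold change divided by the square root of its F statistic. The planned main fit took libraries with at least 20 selected cells, of which there were 2. A fit with at least 10 was planned as an alternative, and was made the source of the fold changes after seeing the data. Code was tested on simulated data. Shares of cells with a UMI were repeated after thinning each cell to 2000 UMIs. Alternatives were DESeq2 1.42.0, total counts, no filter, no library term, other versions of the rule, all barcodes with no quality filter (added after seeing the data), the replicate number as a block and leaving out each mouse.

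The cells and gene lists were chosen with earlier results of these data known. The 3 classes and the dendritic cell and "other" gene lists were added after values were seen. Genes named outside the lists were those of highest or lowest fold change among genes that passed, with at least 50 CPM in either set and 1 direction in every library, and Tnfrsf1a, Tnfrsf1b, Tnf, Dnmt3a and Kit always. Gene positions are from RefSeq (GRCm38.p6). P-values of the share tests and of the fit between groups measure the spread between mice, which may share a primary donor. In the fits of selected cells against another set, the library term takes out differences between mice. Those p-values set the difference between the sets against its variation from library to library, which edgeR estimated partly over all genes. In the fits of libraries with at least 20 selected cells, so few libraries were left that each gene's own variation was barely measured. Calls from those fits thus rest mainly on spread pooled over genes.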

Additional observations from a re-analysis of the deposited data

Results flagged for a closer look

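Dnmt3a replicate 4 stood apart from the other 3 Dnmt3a mice in the share of selected cells, at 1.64% of kept cells, with a gap to the next mouse of 0.981 of the group's whole range. It also stood apart in the share of cells with a CD3 gene, at 1.41%, with a gap of 0.957 of the range. Both were above Dixon's limit for 4 samples, which chance passes in about 1 in 20 groups, and the same cells enter both values.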

How the results depend on the processing

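Of 241 alternatives, 217 were counted as unchanged, 15 moved a count of genes by over 1.5 times and 9 reversed a difference of shares. For shares, unchanged meant that the difference kept its direction, though not always its size. For the 69 settings of expression it meant only that the number of genes that passed stayed within 1.5 times. Which genes passed, and in which direction, was not part of that count. Same-numbered libraries deviated together in some pairs only: 8 of 19 correlations over 8311 genes were above 0.1 (range -0.461 to 0.462), among them 3 of 4 for Dnmt3a and Dnmt3a;Tnfr2KO and 2 of 3 for Dnmt3a;Tnfr1KO and Dnmt3a;Tnfr2KO. No comparison had every pair above 0.1, so the numbers are not taken as pairs. With the replicate number as a block, Dnmt3a minus MxCre was -0.0659 points (exact permutation p = 0.5), the reverse of the main value, since the block leaves out Dnmt3a replicate 4. Leaving out 1 mouse at a time, the difference ran from -0.0659 (without Dnmt3a replicate 4) to 0.429 points for Dnmt3a minus MxCre, from -0.582 to -0.0877 for Dnmt3a;Tnfr2KO minus Dnmt3a and from -0.755 to -0.278 for Dnmt3a;Tnfr2KO minus Dnmt3a;Tnfr1KO. For Dnmt3a;Tnfr1KO minus Dnmt3a it ran from -0.176 (without Dnmt3a;Tnfr1KO replicate 2) to 0.450, and was -0.0447, -0.0354 and -0.0378 without Dnmt3a replicates 1, 2 and 3. Without Dnmt3a replicate 4 the share of cells with a CD3 gene reversed for Dnmt3a minus MxCre (-0.118, range -0.118 to 0.335) and Dnmt3a;Tnfr1KO minus Dnmt3a (0.167, range -0.285 to 0.167), and that of Ncr1+ cells for Dnmt3a minus MxCre (-0.00138, range -0.00138 to 0.0461).

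Against all other cells, the 3033 genes of the 2-library fit became 1668 under DESeq2 and 636 with no library term, and the 4009 of the 6-library fit became 2424 with CD3 cells only and 3002 to 3933 without 1 library. Against mature B cells, 681 genes became 231 under DESeq2 and 382 with no library term, and 818 became 447 with no library term, 359 with CD3 cells only and 469 (without Dnmt3a;Tnfr1KO replicate 2) to 825 without 1 library. Against lymphoid-primed progenitors, 1942 genes became 586 under DESeq2, and 2515 became 1083 with CD3 cells only and 1643 (without Dnmt3a replicate 4) to 2402 without 1 library. CD3 cells alone left 3 libraries to fit, and otherwise the cause was not tested. Dnmt3a;Tnfr1KO against Dnmt3a within the selected cells gave 11 genes under DESeq2, 46 with no filter and 0 to 6 without 1 of the 6 libraries (5 without Dnmt3a replicate 3, 6 without Dnmt3a;Tnfr1KO replicate 1). Without either Dnmt3a library 1 was left, which is assumed to vary like the others. The replicate block could not be fitted in this comparison. Leaving out a library was not possible in the 2-library fits. With 3 to 17 selected cells in 12 of the 14 mice, depth limits every statement on their make-up.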

Other observations

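Klrb1c, which encodes NK1.1, was also found outside the selected cells, mostly in 1 mouse. In Dnmt3a replicate 4, 467 of 5587 other kept cells (8.36%) had a Klrb1c UMI, against 0.103% to 0.768% in the other 13 libraries. Of these 467 cells, 463 (99.1%) had the B cell gene Cd79a, 460 the surrogate light chain gene Vpreb1, 460 the B lineage factor Ebf1, 440 Il7r and 386 the recombinase gene Rag1. They made up 17.7% of the cells with Cd79a in that library. In Dnmt3a;Tnfr1KO replicate 2, the library with the next highest share of cells with Cd79a, 11 other kept cells had Klrb1c, 2 of them with Cd79a (0.409% of its cells with Cd79a). In Dnmt3a replicates 1 and 3, 15 other kept cells each had Klrb1c, and 6 of the 15 had Cd79a in each. Those made up 4.44% and 2.48% of the cells with Cd79a. In the remaining libraries no such cell had Cd79a.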
